A study of Homo sapiens with 10 samples.

Results

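The genes for inflammatory chemokines and cytokines followed here were CXCL1, CXCL2, CXCL3, CXCL5, CXCL8, IL6, IL1A, IL1B, CCL2 and LIF. These 10 of the 61533 genes in the count tables were chosen by name, with their difference between the 2 cell lines already known from an earlier look at the same libraries. Their values in that comparison are therefore given as a description and carry no test. T24 is a human bladder cancer cell line, and T24R2 is a cisplatin-resistant line derived from it by repeated exposure to the drug. RNA-seq libraries came from 5 replicates of each line, all taken on day 3 of culture, and the question behind the comparison was how RNA expression differs between cisplatin-sensitive and cisplatin-resistant cells. The methods of the study keep T24R2 in cisplatin, while the labels list one medium with no drug for both lines, so the line and the presence of drug cannot be told apart here. T24R2 stands for a single derivation of resistance. The labels do not say whether replicates were separate cultures, so p-values measure only the spread between libraries.

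Chemokines of the CXCL group are small secreted proteins that draw leukocytes to a tissue. CXCL1, CXCL2, CXCL3, CXCL5, CXCL6 and CXCL8, whose genes lie together on chromosome 4, mainly attract neutrophils. They bind the receptor CXCR2, and some of them, CXCL8 included, also bind CXCR1, whereas CCL2 binds CCR2 and attracts monocytes. IL-1 alpha (IL1A) and IL-1 beta (IL1B) are alarm cytokines that act through the receptor IL1R1, and IL-6 (IL6) and LIF act through receptors that share the subunit gp130 (IL6ST). Transcription of many of these genes is driven by NF-kB, AP-1 and C/EBP factors, and many of their mRNAs are short-lived because of AU-rich elements. Tumour cells, those of the bladder included, can make these factors themselves.

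Total counts were 9257843 to 10247941 in T24 and 9591379 to 10840954 in T24R2. A count of 3 or fewer in a library was treated as at the floor, which corresponds to 0.260 to 0.343 CPM (a count scaled to the effective size of its library). Leukocyte markers were near absent, with a summed level of 1.60 to 2.58 CPM in T24 and 0.590 to 3.07 CPM in T24R2 over the list, and MS4A1, FCGR3A, S100A8 and S100A9 were at 0 counts in all 10 libraries. Of 15 urothelial and epithelial markers, 9 were tested and all 9 fell in T24R2, against 26.5% of all genes tested. The summed level of all 15 went from 5010 to 5744 CPM to 3028 to 3232 CPM. KRT7, KRT8 and KRT18 stayed abundant, while KRT19 was at 267 ± 7.23 CPM in T24 and 0.0887 ± 0.124 CPM in T24R2. Of 10 fibroblast and endothelial markers, 5 were tested and all 5 fell. The summed level of all 10 went from 239 to 292 CPM to 2.49 to 4.40 CPM, and was mostly CDH5. The part of these shifts in the values below was not tested. In bulk RNA, fewer cells that express a gene and less RNA per cell cannot be told apart.

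The promoters of the chemokine genes are shown first. The 6 genes of the chromosome 4 cluster carry the same short stretch, and they differed widely in how much transcript remained in T24R2. The part of that stretch in the levels was not tested. Promoters of 8 of the 10 genes were matched by symbol in a RefSeq table of build GRCh38.p14 (CCL2 and LIF were not matched), and the 250 bases before the RefSeq start were searched on both strands for 4 motifs. The kappa-B motif GGANTTTCC, which NF-kB binds, was found in 6 of the 8 (CXCL1, CXCL2, CXCL3, CXCL5, CXCL8 and IL6) and in CXCL6, against 1.45% of all 35116 promoters of the table. It began 91 bases before the start in CXCL8, 90 in CXCL5, 89 in CXCL6, 78 in CXCL1 and CXCL3, 77 in CXCL2 and 72 in IL6. Bases 160 to 41 before the start follow, 5′ to 3′ on the strand of the gene, with the kappa-B match in capitals. They are given in the order in which the chemokine genes lie on the chromosome, with IL6 last.
CXCL8 (chr4:73740409-73740528, plus strand): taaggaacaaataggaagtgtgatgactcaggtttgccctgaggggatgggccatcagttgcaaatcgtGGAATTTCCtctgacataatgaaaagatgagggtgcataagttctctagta
CXCL6 (chr4:73836518-73836637, plus strand): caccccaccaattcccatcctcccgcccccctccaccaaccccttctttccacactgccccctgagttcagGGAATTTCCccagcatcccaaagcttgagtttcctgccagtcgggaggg
CXCL1 (chr4:73869233-73869352, plus strand): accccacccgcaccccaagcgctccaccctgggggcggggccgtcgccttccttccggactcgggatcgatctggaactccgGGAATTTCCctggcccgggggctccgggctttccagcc
CXCL5 (chr4:73998718-73998837, minus strand): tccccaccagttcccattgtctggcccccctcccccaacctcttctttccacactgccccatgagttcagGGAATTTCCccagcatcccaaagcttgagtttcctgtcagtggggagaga
CXCL3 (chr4:74038730-74038849, minus strand): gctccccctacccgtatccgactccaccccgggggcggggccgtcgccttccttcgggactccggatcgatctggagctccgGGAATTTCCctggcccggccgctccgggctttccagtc
CXCL2 (chr4:74099236-74099355, minus strand): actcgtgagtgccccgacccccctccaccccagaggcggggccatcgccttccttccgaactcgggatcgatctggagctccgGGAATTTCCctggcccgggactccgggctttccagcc
IL6 (chr7:22727040-22727159, plus strand): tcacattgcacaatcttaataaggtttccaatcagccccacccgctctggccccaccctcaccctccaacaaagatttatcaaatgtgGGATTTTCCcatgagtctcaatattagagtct

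The flanks of the kappa-B match fell into families. Over the 40 bases on each side, laid over each other without gaps, CXCL5 and CXCL6 were 92.5% identical, CXCL1 and CXCL3 91.2%, CXCL1 and CXCL2 72.5%, and CXCL2 and CXCL3 67.5%. CXCL8 shared 16.2% to 27.5% of these bases with the other 5. The AP-1 motif TGANTCA was found in CXCL8, 137 bases before the start, and in IL1A, 12 bases before it, against 6.57% of all promoters. The C/EBP motif TTGCNNAA was found in CXCL2, IL1B and IL6, against 9.05% of all promoters, and the CRE motif TGACGTCA in 0 of 8, against 1.65%. No match overlapped one to another motif. A match describes the letters and does not show a bound site. Only these exact letters were searched, so the lack of a match does not show that a site is missing.

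CXCL8 (interleukin 8, ENSG00000169429.11, chr4:73740541-73743716) was the most abundant chemokine by counts. It was at 335, 391, 399.7, 385 and 394 CPM in the 5 T24 libraries and at 88.7, 119, 94.0, 98.1 and 102 CPM in the 5 T24R2 libraries. The highest T24R2 library was far below the lowest T24 library. The means were 381 ± 26.3 and 100.3 ± 11.4 CPM (SD, n = 5), which is 3.80-fold lower in T24R2, with a fitted log2 fold change of -1.92 (SE 0.06).

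CXCL1 (ENSG00000163739.5, chr4:73869393-73871308) followed closely. It was at 283, 368, 317, 265 and 296 CPM in T24 and at 85.7, 95.3, 99.1, 106 and 91.6 CPM in T24R2, with no overlap. The mean was 3.20-fold lower in T24R2 (306 ± 39.8 against 95.5 ± 7.52 CPM, log2 fold change -1.68, SE 0.06).

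CXCL2 (ENSG00000081041.9, chr4:74097040-74099196) and CXCL3 (ENSG00000163734.4, chr4:74036589-74038807), which are close copies of CXCL1, were much less abundant and differed less. CXCL2 was at 19.4, 23.7, 21.5, 17.3 and 22.7 CPM in T24 and at 11.6, 9.71, 8.45, 9.36 and 8.55 CPM in T24R2. CXCL3 was at 8.93, 10.5, 10.4, 11.3 and 14.7 CPM in T24 and at 4.50, 4.42, 4.89, 5.70 and 3.64 CPM in T24R2. Neither gene had overlapping libraries, and the means were 2.20-fold and 2.41-fold lower in T24R2 (log2 fold changes -1.13, SE 0.11, and -1.26, SE 0.16). Counting kept uniquely mapped reads, and of the stretches of 50 bases in the reference transcripts, 5.63% of those of CXCL2 recur in CXCL1, 5.07% in CXCL3 and 0% in CXCL5, CXCL6 or CXCL8. A read that fits several of CXCL1, CXCL2 and CXCL3 equally well would have been left out, which would lower the counts of those genes. How many reads were left out is not known.

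CXCL5 (ENSG00000163735.7, chr4:73995642-73998677) was lost from view. The T24 libraries held 880, 1266, 1044, 963 and 1161 counts of it (91.3, 133, 119, 104 and 125 CPM), and all 5 T24R2 libraries held 0. Set against the floor of 3 counts per library, the level was at least 413-fold lower in T24R2. Of the exon bases of CXCL5, 17.3% are shared with a long non-coding RNA on the opposite strand, ENSG00000287037 (chr4:73997933-74007682), which held 232 to 380 counts per T24 library and 0 in every T24R2 library. Counting was set to use strand, whereas the library kit is not described as strand-specific, so reads in the 422 shared bases cannot be assigned to one of the 2 genes with certainty.

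CXCL6 (ENSG00000124875.10, chr4:73836640-73849064), the neighbour that was not among the chosen genes, resembled CXCL5. It fell from 293 ± 8.07 CPM to 1.61 ± 0.155 CPM (log2 fold change -7.50, SE 0.08, adjusted p = 3.3e-43 in edgeR's quasi-likelihood test over 16181 genes). Its T24 libraries held 2581 to 2809 counts and its T24R2 libraries 16 to 20. CXCL5 and CXCL6 are the pair whose promoters are 92.5% identical around the kappa-B match. CXCL1 and CXCL3, 91.2% identical there, had log2 fold changes of -1.68 and -1.26. Their levels already differed in T24, at 306 and 11.2 CPM, and were 95.5 and 4.63 CPM in T24R2. This was seen after the values were known, and the part of the promoters in these levels was not tested.

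**Figure D1:**
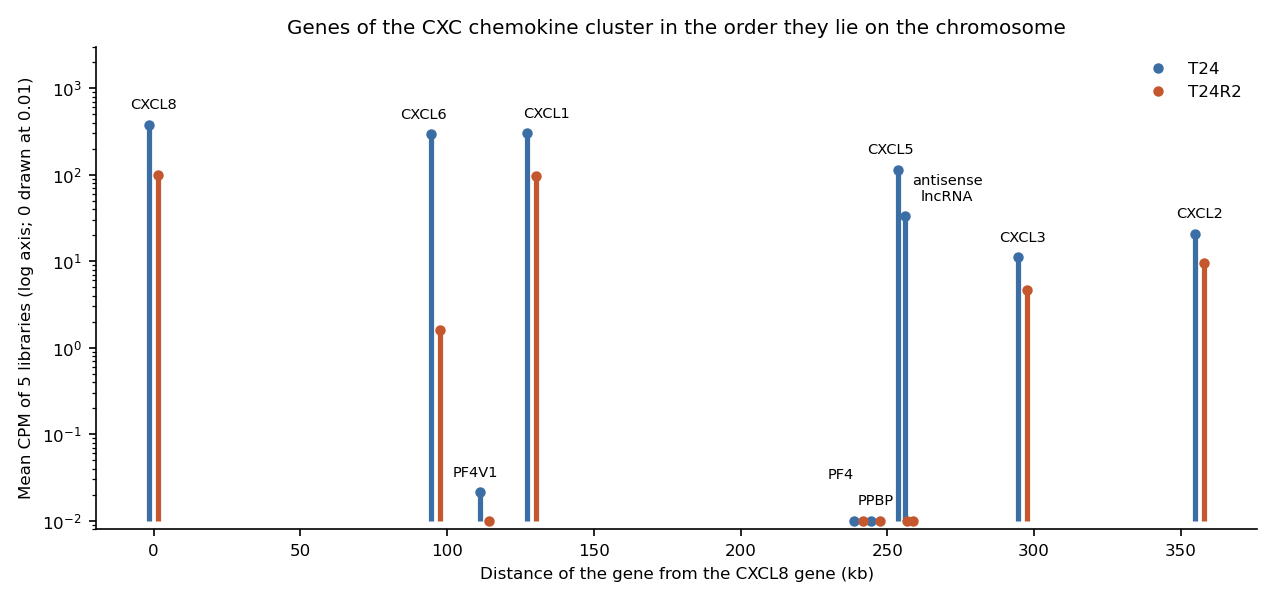
Mean CPM of 5 T24 (blue) and 5 T24R2 (red) libraries, on a log axis, for the chemokine genes of the chromosome 4 cluster and the non-coding RNA antisense to CXCL5, placed by distance from the CXCL8 gene. Values of 0 are drawn at 0.01. CXCL8, CXCL1, CXCL3 and CXCL2 kept a level above 4 CPM in T24R2, CXCL6 was at 1.61 CPM, and CXCL5 and the non-coding RNA were at 0.

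The cluster, from CXCL8 to CXCL2, spans 359 kb and holds 19 annotated genes. Only 7 of them had more than 100 counts over the 10 libraries, the 6 chemokine genes and ENSG00000287037. The platelet chemokine genes PF4 and PPBP, which lie between CXCL1 and CXCL5, were at 0 counts in all libraries, and PF4V1 had 1 count.

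Summed over CXCL1, CXCL2, CXCL3, CXCL5 and CXCL8, chemokine transcript was at 737, 927, 867, 782 and 853 CPM in T24 and at 190.5, 228, 206, 219 and 206 CPM in T24R2. The mean of the sum was 3.97-fold lower in T24R2, and 5.33-fold lower when CXCL6 was included (1126 ± 78.8 against 212 ± 14.1 CPM). The makeup of that sum shifted as well. In T24, CXCL8 made up 33.8% of the 6 chemokines, CXCL1 27.1%, CXCL6 26.1% and CXCL5 10.1%. In T24R2, CXCL8 and CXCL1 alone made up 47.3% and 45.2%, and CXCL6 0.765%. These are shares of CPM, not corrected for exon length, and per kilobase of exon CXCL1 was above CXCL8 in both lines.

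**Figure D2:**
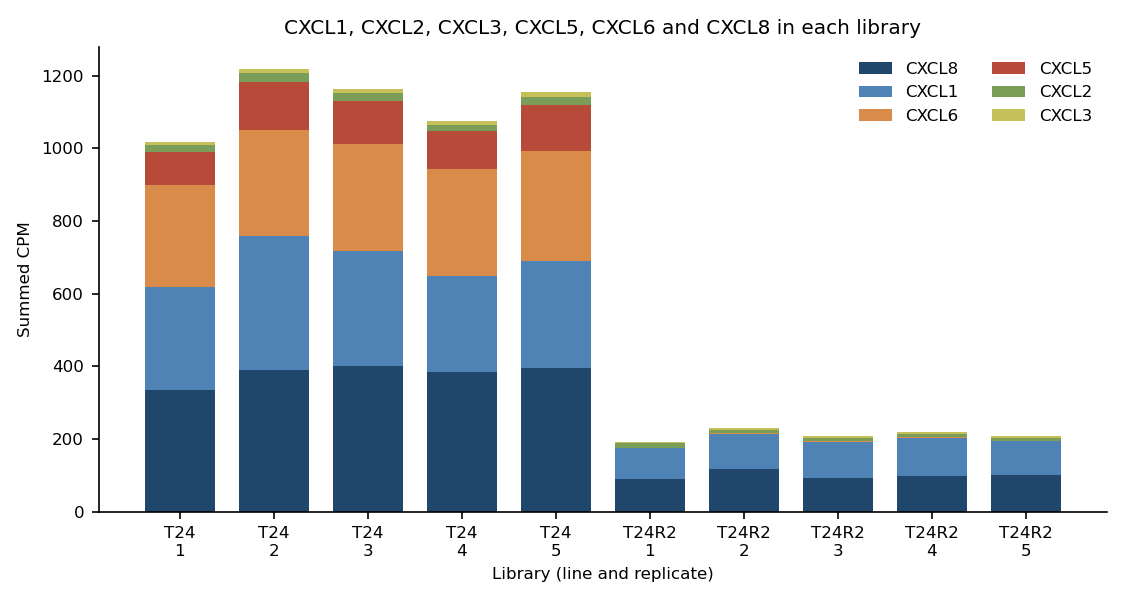
Summed CPM of the 6 CXCL chemokines in each of the 5 T24 and 5 T24R2 libraries, as stacked bars with 1 colour per gene. The T24 bars reach 1018 to 1218 CPM with 4 thick layers (CXCL8, CXCL1, CXCL6, CXCL5), and the T24R2 bars reach 192 to 230 CPM with only CXCL8 and CXCL1 thick.

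CCL2 (ENSG00000108691.9, chr17:34255218-34257203) was scarce in both lines and did not pass the filter on low counts. The T24 libraries held 8, 25, 12, 9 and 5 counts and the T24R2 libraries 0, 0, 0, 2 and 1. The lines did not overlap, and the ratio of the summed counts, 59 against 3, was 23.0 with a 95% counting interval of 7.49 to 115 (exact binomial, counting error only). One T24 library held 25 of the 59 counts.

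The IL-1 genes, which lie side by side on chromosome 2, were both lower in T24R2. IL1A (ENSG00000115008.6, chr2:112773925-112784493) was at 175, 172, 166, 181 and 155 CPM in T24 and at 40.3, 40.7, 40.7, 39.5 and 47.9 CPM in T24R2. Its mean was 4.06-fold lower (log2 fold change -2.02, SE 0.06). IL1B (ENSG00000125538.12, chr2:112829751-112836816) was at 399.7, 410.1, 407, 404 and 399 CPM in T24 and at 163, 150.4, 164, 155 and 142 CPM in T24R2. Its T24 libraries differed from each other by very little (404 ± 4.74 CPM), and its mean was 2.61-fold lower in T24R2 (155 ± 8.92 CPM, log2 fold change -1.38, SE 0.04).

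IL6 (ENSG00000136244.12, chr7:22725884-22732002) was the exception. It was at 9.03, 5.58, 5.48, 7.64 and 9.50 CPM in T24 and at 30.7, 30.6, 28.8, 28.2 and 23.3 CPM in T24R2. Every T24R2 library was above every T24 library, and the mean was 3.80-fold higher in T24R2 (log2 fold change 1.92, SE 0.12). The gene carries the kappa-B motif of the chemokine promoters in the form GGATTTTCC, and the part of the motif in the level of IL6 was not tested. Of its exon bases, 20.7% are shared with genes on the opposite strand. One of these, IL6-AS1, averaged 6.2 counts per library in T24 and 6.6 in T24R2, and the other, STEAP1B, 43.8 and 23.8, against 69.4 and 308 counts of IL6 itself.

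LIF (ENSG00000128342.5, chr22:30240453-30246759), a cytokine of the IL-6 family, was nearly level. It was at 206, 234, 221, 236 and 226 CPM in T24 and at 208, 193, 169, 184 and 194 CPM in T24R2. One T24R2 library lay above the lowest T24 library, so that the lines overlapped. The mean was 1.18-fold lower in T24R2 (224 ± 12.2 against 190 ± 14.3 CPM, log2 fold change -0.24, SE 0.05), and without scaling beyond library size the log2 fold change was -0.08.

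**Figure D3:**
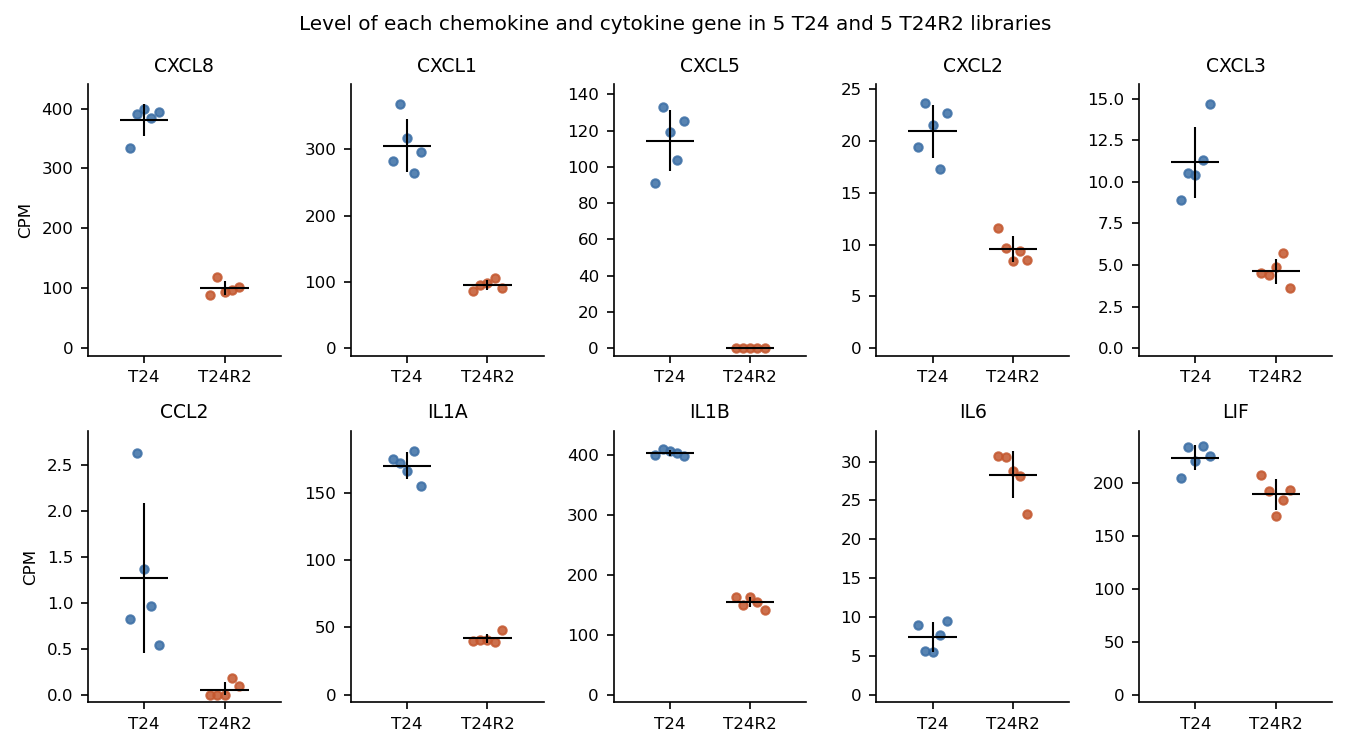
CPM of each of the 10 genes in the 5 T24 (blue) and 5 T24R2 (red) libraries, 1 panel per gene with its own linear axis from 0; points are libraries, horizontal bars means and vertical bars ± 1 SD. The T24R2 points lie below all T24 points in 8 panels and above them in the IL6 panel. In the LIF panel they lie mostly below the T24 points, but the lines overlap.

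Of the 9 genes that were tested, 7 were called lower in T24R2 (CXCL1, CXCL2, CXCL3, CXCL5, CXCL8, IL1A and IL1B), 1 was called higher (IL6) and LIF was not called. A gene was called at an adjusted p under 0.05 in edgeR's quasi-likelihood test and an absolute log2 fold change over 0.5. Of all 16181 genes tested, 26.5% were called lower and 24.9% higher, which is 4282 and 4027 genes (3431 and 5206 without scaling beyond library size). The libraries of the 2 lines did not overlap for 9 of the 10 genes, CCL2 included, and for 61.2% of all genes tested. The genes were chosen with these differences known, so nothing is read from the counts.

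Compared per kilobase of exon, the order of levels changed between the lines. In T24 the mean level was 224 CPM per kb for CXCL1, 170.2 for CXCL8, 134 for IL1B and 84.3 for IL1A, and the libraries of these 4 did not overlap with those of the next in order. LIF (58.0 CPM per kb) and CXCL5 (47.0) overlapped, then came CXCL2 (15.0), CXCL3 (5.03) and IL6 (3.60), the last pair overlapping, and CCL2 (0.638). In T24R2 the first was again CXCL1, at 70.1 CPM per kb, followed by IL1B (51.5), LIF (49.0) and CXCL8 (44.8). The libraries of IL1B overlapped with those of LIF, and those of LIF with those of CXCL8, while CXCL8 was apart from the next gene. IL1A was at 20.7 CPM per kb, IL6 at 13.7, CXCL2 at 6.81 and CXCL3 at 2.09, each apart from the next, and CCL2 and CXCL5 were at or near 0. IL6 thus lay below CXCL2 in T24 and above it in T24R2.

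Another shared feature lies at the other end of the transcripts. In the 3′ UTR of the GENCODE release 44 reference transcript, the pentamer ATTTA, the core of AU-rich elements that mark cytokine mRNAs for decay, occurred in all 10 genes, at 2.19 (LIF) to 14.1 (IL6) per kb. The median of the 10 was 7.48 per kb, against 1.87 over the 14771 coding genes with a 3′ UTR of at least 376 bases, the shortest of the 10. The stronger nonamer TTATTTATT was in the first 376 bases of 4 of the 10 (CXCL1, CXCL2, CXCL8 and IL1B), against 1.75% of those genes, and anywhere in the 3′ UTR of 6 of the 10, with CXCL3 and LIF. The first run of nonamers in each of these 6 follows, written as DNA with the nonamer bases in capitals.
CXCL1: ttctatTTATTTATTTATTcattag
CXCL2: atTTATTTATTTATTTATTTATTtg
CXCL3: gtcagttgTTATTTATTcaaattat
CXCL8: gtaaagtaTTATTTATTtgaatcta
IL1B: ccctatTTATTTATTTATTtgtttg
LIF: ccgggcccTTATTTATTatttaaac

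CXCL5, CXCL6, IL6, IL1A and CCL2 held no nonamer. Of the 6 genes with it, 5 were called lower and LIF was not. Of those without it, CXCL5, CXCL6 and IL1A were called lower too, IL6 was called higher and CCL2 was not tested. Over all genes tested, 26.5% were called lower. The part of the nonamer in the levels was not tested. Of 13 genes for factors that bind AU-rich elements or cut cytokine mRNAs, all were tested, 2 rose and 4 fell (median log2 fold change 0.03, against 0.01 over all genes tested). ZC3H12A (Regnase-1, a nuclease that cuts IL6 mRNA) fell from 105 ± 6.13 to 46.7 ± 4.25 CPM (adjusted p = 3.5e-20 in edgeR), and its relative ZC3H12C fell similarly, by 1.16 on the log2 scale (adjusted p = 1.1e-17). RC3H1 (Roquin-1, a repressor of cytokine mRNAs) rose by a log2 fold change of 0.98 (adjusted p = 9.4e-13). ZFP36 (tristetraprolin), which binds the nonamer, was not called, at 18.4 ± 0.915 and 15.0 ± 1.66 CPM.

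Receptors for the chemokines were almost unmeasurable. CXCR1, CXCR2 and CCR2 had 0 counts in all 10 libraries, which allows at most 0.343 CPM in any of them. Among other chemokine receptors, the scavenger ACKR3 had none in T24 and 0.312 ± 0.269 CPM in T24R2. Of 22 chemokine receptors, 4 were tested and 3 fell, CXCR5, CCR10 and ACKR4. For CXCR5, at 78.8 ± 7.09 and 18.3 ± 1.84 CPM, 91.2% of the exon bases are shared with a gene on the opposite strand, and for CCR10 34.4%, so that neither level can be assigned to the receptor with certainty. Among 36 other chemokine ligands, 19 had no count in any library and 4 were tested. CXCL6 and CCL20 fell, the latter from 7.30 ± 1.05 to 0.262 ± 0.204 CPM (adjusted p = 1.6e-16). CXCL16, a membrane-bound chemokine, rose from 7.39 ± 0.802 to 12.2 ± 1.99 CPM (log2 fold change 0.72, adjusted p = 1.2e-05), and CXCL12 was at 0 counts in T24 and at 1.16 CPM in T24R2, at least 3.60-fold higher.

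In the IL-1 family, 7 of 18 further genes were tested, of which 2 rose and 4 fell (median log2 fold change -0.80). IL18, a cytokine that like IL-1 beta needs cleavage by caspase-1, was at 74.9 ± 5.81 CPM in T24 and had 2 counts in all of T24R2, a ratio of 2033 with a 95% counting interval of 562 to 16792. Of the 4 receptor genes tested, 2 rose and 2 fell. IL1R1, through which both IL-1 cytokines signal, rose from 2.81 ± 1.21 to 12.7 ± 0.704 CPM (log2 fold change 2.18, adjusted p = 1.1e-13), and IL18R1 from 0.644 ± 0.161 to 11.1 ± 1.71 CPM (log2 fold change 4.08, adjusted p = 2.5e-19). The co-receptor IL1RAP fell by 0.80 on the log2 scale (adjusted p = 2.5e-09), and SIGIRR, a receptor that dampens IL-1 signalling, from 71.3 ± 6.67 to 17.0 ± 2.99 CPM (log2 fold change -2.07, adjusted p = 3.2e-23). The antagonist IL1RN and the decoy receptor IL1R2 averaged under 0.4 CPM in both lines.

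Of 12 inflammasome and IL-1 processing genes, 10 were tested, 1 rose and 4 fell (median log2 fold change -0.38). PYCARD, the adaptor ASC, was at 41.7 ± 3.70 CPM in T24 and 0.129 ± 0.0819 CPM in T24R2 (adjusted p = 1.7e-31), with 59.7% of its exon bases shared with a gene on the opposite strand. The sensors NLRP3 and NLRP1 fell by 3.23 and by 2.28 on the log2 scale (adjusted p = 1.0e-17 and 7.4e-32). CASP1, the caspase that cleaves pro-IL-1 beta, was not called, at 17.3 ± 2.70 and 12.9 ± 1.49 CPM with overlapping libraries.

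In the IL-6 family, 19 of 22 genes were tested, 1 rose and 6 fell (median log2 fold change -0.03). IL11, the relative of IL6 and LIF, fell from 17.6 ± 2.79 to 1.05 ± 0.480 CPM (log2 fold change -4.08, adjusted p = 4.6e-21), opposite to IL6. CLCF1, another ligand of the family, rose from 7.72 ± 2.01 to 16.5 ± 1.98 CPM (log2 fold change 1.10, adjusted p = 3.8e-09). On the receptor side, IL6R fell from 3.89 ± 0.708 to 0.926 ± 0.248 CPM (adjusted p = 2.1e-08). IL6ST, the shared gp130 subunit, was at 156 ± 9.03 and 219 ± 11.8 CPM and LIFR at 12.9 ± 1.85 and 17.7 ± 2.30 CPM, and both were just under the fold minimum with log2 fold changes of 0.49 and 0.46. They passed it without scaling (0.65 and 0.62), with upper-quartile normalization (0.56 and 0.53) and without T24R2 replicate 1 (0.52 for each), IL6ST also without T24 replicate 4 (0.51) and with a mean of at least 100 counts (0.52), and LIFR without T24 replicate 2 (0.51) or T24R2 replicate 3 (0.51). OSMR (log2 fold change 0.08) and the signal transducer STAT3 (-0.21) were not called. SOCS3, the feedback inhibitor that STAT3 induces, fell from 44.2 ± 1.72 to 8.94 ± 0.749 CPM (log2 fold change -2.30, adjusted p = 1.5e-24).

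Among 24 other secreted cytokines, 16 were tested, 2 rose and 10 fell (median log2 fold change -1.23). CSF2 (GM-CSF) fell from 33.5 ± 4.44 to 2.04 ± 0.427 CPM (adjusted p = 5.0e-26), IL32 from 24.2 ± 1.09 to 0.618 ± 0.298 CPM (adjusted p = 4.7e-26), and GDF15, a stress-induced cytokine of the TGF-beta family, from 61.7 ± 10.7 to 0.787 ± 0.559 CPM (adjusted p = 2.6e-29). TNF, at 4.82 CPM in T24, had 2 counts in all of T24R2, a ratio of 130.2 with a 95% counting interval of 35.6 to 1082.

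The NF-kB pathway was followed at 3 levels. Of 22 feedback and target genes, 1 was not analysed here and 20 were tested, of which 14 fell and 0 rose, with a median log2 fold change of -1.83 against 0.01 over all genes tested. At an unadjusted p under 0.05 in edgeR 1 gene of the list was higher in T24R2, and DESeq2 and limma-voom called 0. ICAM1, the adhesion molecule for leukocytes, fell from 226 ± 9.95 to 17.3 ± 2.59 CPM (log2 fold change -3.71, adjusted p = 9.2e-36), with 25.4% of its exon bases shared with the opposite strand. C3, the central complement protein, fell from 192 ± 12.7 to 7.73 ± 1.47 CPM (log2 fold change -4.64, adjusted p = 1.0e-36), and TNFAIP3 (A20, the feedback inhibitor) from 247 ± 24.2 to 37.2 ± 3.20 CPM (log2 fold change -2.73, adjusted p = 5.0e-32). SAA1 fell from 11.9 ± 1.89 to 0.128 ± 0.123 CPM (adjusted p = 6.0e-21 in edgeR). It has a near-identical copy, SAA2, and reads that fit both equally well would have been left out of the counts.

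The subunits and inhibitors of NF-kB themselves divided. All 11 were tested, 4 fell and 0 rose in edgeR (median log2 fold change -0.09), with 3 higher at an unadjusted p under 0.05, 0 called higher by DESeq2 and 1 by limma-voom. The 4 were NFKBIZ (log2 fold change -2.22, adjusted p = 6.0e-29), NFKB2 (-1.49, 4.3e-27), NFKBIA (-1.28, 8.6e-24) and NFKBIE (-1.15, 6.7e-15). NFKB1 and RELA, the subunits of the main NF-kB dimer, were at 74.5 ± 1.30 and 97.7 ± 2.35 CPM and at 188 ± 14.4 and 154 ± 3.72 CPM, and neither passed the fold minimum, although NFKB1 did without scaling (log2 fold change 0.56). Of 28 genes for receptors, adaptors and kinases upstream of NF-kB, not all of them activators, 27 were tested, 5 rose and 11 fell (median log2 fold change -0.28). IRAK3 was among those that fell, with 357 counts in T24 and 1 in T24R2. The ratio was 417, with a 95% counting interval of 74.4 to 16514. TLR2 fell from 10.2 ± 1.91 CPM to 0 in all 5 T24R2 libraries, at least 36.9-fold, and IRAK2, a kinase downstream of the IL-1 receptor, by 1.52 on the log2 scale (adjusted p = 5.7e-24).

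Of 8 genes for C/EBP and other transcription factors, all were tested, 3 rose and 1 fell (median log2 fold change -0.04). Those called were all C/EBP genes. CEBPB, a factor known to drive IL6 transcription, rose from 74.4 ± 3.68 to 129 ± 13.9 CPM (log2 fold change 0.79, adjusted p = 4.9e-15), CEBPG rose by a log2 fold change of 0.70 (adjusted p = 9.4e-12), and CEBPD fell by 0.88 on the log2 scale (adjusted p = 2.2e-10). Of the exon bases of CEBPB, 12.6% are shared with the opposite strand. Of 15 kinases and phosphatases of the p38, JNK and MK2 pathways, 3 rose and 3 fell (median log2 fold change -0.10). MAPK13 (p38 delta) fell from 53.9 ± 3.11 to 0.784 ± 0.382 CPM (adjusted p = 1.3e-31).

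**Figure D4:**
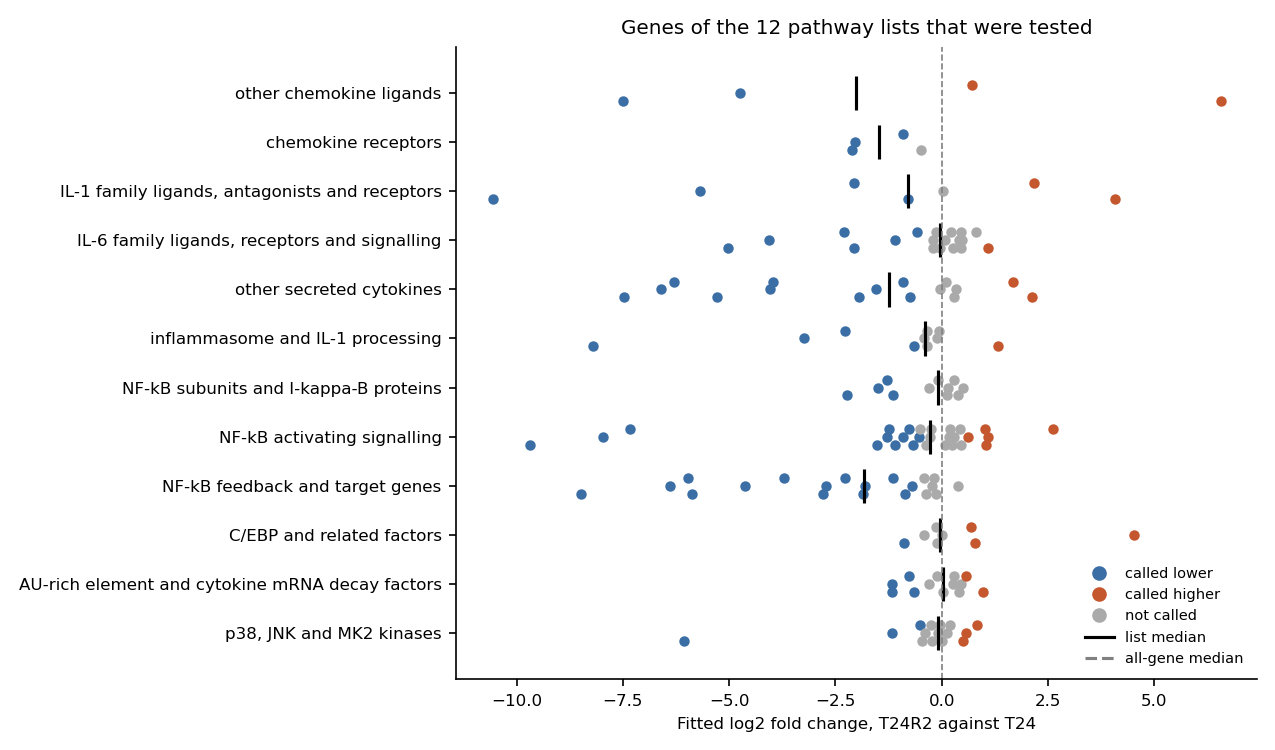
Fitted log2 fold change, T24R2 against T24, of each tested gene in the 12 pathway lists (1 point per gene, blue called lower, red called higher, grey not called), with the median of each list as a black bar and that of all genes tested (0.01) as a dashed line; for the 5 genes at 0 in one line the fitted value is no bound. The NF-kB feedback and target genes lie almost wholly to the left, with a median of -1.83, while the NF-kB subunits are centred near 0.

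Over the 12 lists together, 154 of the 230 genes analysed were tested, 66 fell (42.9%) and 21 rose (13.6%), with a median log2 fold change of -0.32. Without scaling beyond library size, which moved the median of all genes to 0.18, 61 fell and 33 rose. The shares of all genes tested that were called, 26.5% lower and 24.9% higher, stand beside these as background. The lists were chosen with results of these libraries known, so they are no independent evidence of a direction.

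Genes next to the chosen loci were compared as well. Within 0.5 Mb of the 5 loci, 52 other genes were tested. Over all genes tested, 26.5% fell and 24.9% rose, and of these 52, 15 fell and 6 rose (median log2 fold change -0.15). Among those that fell were CXCL6 and ENSG00000287037, which lie within the chemokine cluster and were described above. Of the 6 tested genes beside the cluster, 3 fell and 2 rose. On the CXCL8 side, RASSF6 had 16 to 24 counts in each T24 library and counts in only 1 T24R2 library, where it had 5 (adjusted p = 2.5e-09). On the CXCL2 side, MTHFD2L, a mitochondrial folate enzyme, rose from 9.06 ± 0.879 to 18.5 ± 1.55 CPM (log2 fold change 1.02, adjusted p = 1.4e-10). Further on, EREG and AREG, the EGF receptor ligands epiregulin and amphiregulin, fell by 1.46 and by 5.71 on the log2 scale (adjusted p = 3.9e-21 and 3.4e-27), AREG from 28.7 ± 3.29 to 0.532 ± 0.228 CPM.

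The nearest tested neighbours of IL1A and IL1B, CKAP2L and PSD4, were not called, at 89.6 ± 2.59 and 86.4 ± 6.07 CPM and at 17.7 ± 2.77 and 21.3 ± 1.46 CPM. Of the 12 tested genes in that window, 2 rose and 1 fell. At a distance, ZC3H6 fell by 1.95 on the log2 scale (adjusted p = 3.0e-14) and the phosphate transporter SLC20A1 rose from 98.8 ± 6.01 to 269.7 ± 11.4 CPM (adjusted p = 1.6e-26). Beside IL6, 2 of 12 genes rose and 5 fell, and TOMM7, the nearest coding neighbour downstream, was not called (log2 fold change -0.42, and -0.53 and called without T24R2 replicate 1). STEAP1B, which overlaps the start of IL6 on the opposite strand, fell by 1.09 on the log2 scale (adjusted p = 4.6e-05). The non-coding ENSG00000232949, the nearest tested gene upstream that does not overlap IL6, rose from 0.587 ± 0.454 to 1.25 ± 0.344 CPM (log2 fold change 1.09, adjusted p = 0.018), with overlapping libraries, and was not called without T24 replicate 1 (0.92) or T24 replicate 2 (0.81). Around CCL2 no gene within 0.5 Mb was tested, and beyond it TMEM98 and ZNF830 rose by log2 fold changes of 0.71 and 0.63 (adjusted p = 5.1e-08 and 1.1e-06). Around LIF, 4 of 20 genes fell. The antisense genes LIF-AS1 and LIF-AS2, which overlap LIF itself, were not called, at log2 fold changes of -0.39 and -0.22. The nearest tested genes on each side that do not overlap it were MTMR3, not called at a log2 fold change of -0.16 and with 65.4% of its exon bases shared with the opposite strand, and TBC1D10A, which fell by 1.28 on the log2 scale (adjusted p = 4.4e-14).

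The genes whose profile over the 10 libraries was most like that of CXCL8, by the root mean square difference of centred log2(CPM + 0.5) values among 13025 genes, were CORO2A (0.087), TLE4 (0.10), JAG1 (0.11), ARHGEF7 (0.11) and RCCD1 (0.11). Their levels differed between the lines by nearly the same factor as that of CXCL8, for example from 212 ± 17.7 to 58.1 ± 0.663 CPM for JAG1, a ligand of Notch. For LIF they were RPL23A (0.054), HS1BP3 (0.056), PLEC (0.057), COX15 (0.057) and ICMT (0.057), all with log2 fold changes of -0.26 to -0.18. The 10 libraries form 2 groups, so that this likeness mainly reflects the difference between the lines.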

How the data were processed

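RNA-seq libraries of 5 T24 and 5 T24R2 replicates were analysed; MeRIP-seq and other assays of the study were not analysed here. The authors aligned reads to hg38 with STAR 2.7.0, kept unique reads without duplicates with SAMtools 1.10, and deposited raw counts per gene (featureCounts 2.0.1, GENCODE release 39, strand option 1). Removing duplicates may lower the counts of abundant transcripts. The methods do not describe the library kit as strand-specific, so exon overlap with the opposite strand is given where it touches a gene.

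Counts were compared in R 4.3.3 with edgeR 4.0.16 (filterByExpr, TMM, quasi-likelihood test, Benjamini-Hochberg adjustment), with calls at an adjusted p-value under 0.05 plus a log2 fold change beyond 0.5 in size. CPM used TMM-scaled library sizes. Values are mean ± SD, n = 5. Errors and intervals cover these libraries and counting only. Positions are those of the deposited tables. The fit was tested on simulated counts with few changed genes. That test does not cover the scaling when many genes differ, as they did here. Promoters came from RefSeq and 3′ UTRs from GENCODE release 44, searched in Python 3.11.15.

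The 10 genes and all lists were chosen with earlier results of these data known. Named were the 10 genes, a fixed set of partners and receptors, up to 3 called genes of each list with the largest change and at least 5 CPM in one line, the closest tested genes flanking each locus with up to 3 further called genes per window, and the 5 genes most like CXCL8 and LIF. CXCL12, TNF, SIGIRR, STEAP1B, LIF-AS1, LIF-AS2, SAA2, NFKBIE, PF4, PF4V1, PPBP, CDH5 and the keratins were named after their values were seen. Alternatives were other scalings, DESeq2 1.42.0, limma-voom (limma 3.58.1), other filters and thresholds, a replicate block, removal of genes overlapped by over 10% from the opposite strand, a 1 Mb window and each library left out.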

Additional observations from a re-analysis of the deposited data

Results flagged for a closer look

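In 2 of 30 groups of 5 libraries (the 10 genes, CXCL6, the library totals and 3 summed levels, in each line), 1 library stood apart from the other 4 by Dixon's criterion, where chance gives about 1 in 20, or 1.5 groups. CXCL8 was at 335 CPM in T24 replicate 1, against 385 to 399.7 CPM in the other T24 libraries. IL1A was at 47.9 CPM in T24R2 replicate 5, against 39.5 to 40.7 CPM in the other T24R2 libraries. Both values lie far from those of the other line.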

How the results depend on the processing

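Over 87 tested genes under the rule, 1671 of 1711 values under the alternatives kept their direction and their call (the chosen genes being compared by the size of the change against 1 SD), 19 lost the call, 12 gained it, 6 moved and 3 changed sign. Among the chosen genes, 7 were called lower and 1 higher under each alternative except 3. With no filter CCL2 was also called (8 lower). With a mean of at least 100 counts CXCL3 was not tested (6 lower). Removing genes overlapped from the opposite strand took out CXCL5 and IL6 (6 lower and 0 higher, only 7 genes being tested). The log2 fold changes ranged over all alternatives from -1.73 to -1.51 for CXCL1, -1.21 to -0.97 for CXCL2, -1.35 to -1.10 for CXCL3, -1.99 to -1.76 for CXCL8, -2.07 to -1.86 for IL1A, -1.40 to -1.22 for IL1B, 1.83 to 2.09 for IL6 and -0.28 to -0.08 for LIF. Counts of calls changed by over 1.5 times as follows. A mean of at least 100 counts left 4991 genes called of 8309 (2350 higher, 2641 lower), 10 higher and 41 lower in the pathway lists and 3 higher and 8 lower around the loci, since fewer genes were tested. A fold minimum of 1 on the log2 scale left 4211 genes (1918 higher, 2293 lower), 12 higher in the lists and 3 higher around the loci. No scaling gave 33 higher in the lists, and a 1 Mb window 17 higher and 29 lower around the loci. CKAP2L changed sign to 0.11 without scaling and 0.022 with upper-quartile normalization, and MTMR3 to 0.0061 without scaling, neither being called; the cause was not tested. Leaving out each library gave 8398 to 8466 genes called. Replicate numbers are shared by the lines, and no pairing of the libraries by number was seen. The correlation of deviations for the same number was 0.00201 to 0.0596, and a pairing under 0.1 could not be resolved. With a replicate block 8240 genes were called, with the same 7 lower and 1 higher among the chosen genes.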

Other observations

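Other secreted factors of the same kind did not all follow the chemokines, in values picked out after they were seen. CSF3 (G-CSF), which drives neutrophil production and is often made beside CXCL8, was at 84.4 ± 17.1 CPM in T24 and 90.4 ± 3.55 CPM in T24R2 (log2 fold change 0.10, adjusted p = 0.25 in edgeR), with overlapping libraries. CSF1, the macrophage growth factor, fell from 56.8 ± 6.96 to 30.1 ± 2.21 CPM (adjusted p = 7.0e-14), and VEGFC, a lymphatic growth factor, from 122 ± 5.04 to 41.9 ± 3.21 CPM (adjusted p = 4.2e-25). PTGS2 (cyclooxygenase-2, which makes prostaglandins in inflammation) fell from 14.9 ± 1.61 to 2.15 ± 0.991 CPM (adjusted p = 3.3e-16), and TLR4, the lipopolysaccharide receptor, fell by 1.28 on the log2 scale from 58.2 ± 5.12 CPM (adjusted p = 6.9e-18).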
